A study of Mus musculus with 38 samples.

Results

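Constant distal RUNX1 sites without CTCF are places outside promoters where RUNX1 was called both before and after Notch stimulation of lymphoid progenitors and where no CTCF was called before it. They were selected on the peak lists themselves. A peak of the lymphoid progenitor (LP) RUNX1 list was taken if its deposited annotation did not begin with promoter, if it shared at least 1 bp with a Phase 1 RUNX1 peak, and if it shared none with an LP CTCF peak. Of 31995 LP RUNX1 peaks, 9112 were annotated as promoter and 22883 were not. Of these 22883 distal sites, 18020 overlapped a Phase 1 RUNX1 peak, 2918 of which also overlapped an LP CTCF peak, so that 15102 sites remained. The other distal sites were the 2918 constant sites with CTCF, 3056 LP-specific sites without CTCF and 1807 LP-specific sites with CTCF, where LP-specific means that no Phase 1 RUNX1 peak overlapped.

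The ChIP-seq was done in Cas9-LP cells, an established line of Ebf1-deficient, Rosa26-Cas9 knock-in mouse fetal liver progenitors, so that every group shared the loss of Ebf1, a factor B cells need, and the Cas9 allele. LP cells were grown on OP9 stroma with SCF, Flt3L and IL-7 and had no Notch ligand, and for Phase 1 they were put on OP9-DLL4 stroma, whose cells display DLL4, a Notch ligand. RUNX1, CTCF, the Mediator subunit Med12 and the acetyltransferase p300 were profiled at both stages and the Notch1 intracellular domain (Notch1-IC) also at the later Phase 2, and cultures with guide RNAs, delivered by retrovirus, were profiled for RUNX1 in LP (sgCont, sgCTCF) and Phase 1 (sgCont, sgMed12) and for Med12 in Phase 1 (sgCont, sgCbfb). The 38 samples formed 19 groups of 2 replicates, and the 17 ChIP groups were each given as 1 list that combined both replicates. No value per replicate could be used, so the tests below compare sites within these lists, cover counting error only and carry no error between cultures.

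RUNX1 binds DNA together with its partner CBFβ and works at enhancers in blood progenitors and throughout T cell development, where it can activate or repress depending on the factors beside it. Mediator links enhancer-bound factors to RNA polymerase II, and p300 acetylates histones at active enhancers, so a peak of either marks coactivator presence rather than RUNX1 itself. CTCF anchors chromatin loops and insulates domains, which is why sites with and without it were kept apart.

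To show what such sites look like, the central 200 bp of 6 of them are given from the GRCm38 genome, plus strand, 5′ to 3′. They are the first by rule of each kind described below, and capitals mark a RUNX string (TGTGGTT or TGCGGTT on either strand). The first 3 each held 1 RUNX string, whereas the last 3 held none.
Highest LP score (between Trac and Dad1), chr14:54227473-54227672: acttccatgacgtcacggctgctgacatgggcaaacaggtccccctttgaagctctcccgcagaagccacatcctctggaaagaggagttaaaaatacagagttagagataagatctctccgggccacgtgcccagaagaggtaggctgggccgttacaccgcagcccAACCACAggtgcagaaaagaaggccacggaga
Largest rise (upstream of Slc16a7), chr10:125488424-125488623: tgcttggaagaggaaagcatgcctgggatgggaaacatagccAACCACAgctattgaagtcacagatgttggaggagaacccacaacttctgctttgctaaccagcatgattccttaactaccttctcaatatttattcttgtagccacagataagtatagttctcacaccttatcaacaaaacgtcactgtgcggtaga
Largest fall (intron of Cuedc1), chr11:88117388-88117587: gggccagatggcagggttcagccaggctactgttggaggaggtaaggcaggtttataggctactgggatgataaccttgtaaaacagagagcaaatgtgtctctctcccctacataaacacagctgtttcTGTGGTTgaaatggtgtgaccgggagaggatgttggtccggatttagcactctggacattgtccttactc
Both coactivators gained (near Zfp36), chr7:28383102-28383301: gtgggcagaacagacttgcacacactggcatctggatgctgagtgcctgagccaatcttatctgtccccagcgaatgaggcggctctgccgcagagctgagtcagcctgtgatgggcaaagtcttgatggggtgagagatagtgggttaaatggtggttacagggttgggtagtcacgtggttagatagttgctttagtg
Both coactivators lost (near Rps10), chr17:27637445-27637644: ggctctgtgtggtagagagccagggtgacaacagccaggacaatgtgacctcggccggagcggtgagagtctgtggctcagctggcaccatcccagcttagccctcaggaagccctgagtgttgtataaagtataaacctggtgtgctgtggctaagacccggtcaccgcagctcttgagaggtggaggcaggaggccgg
No coactivator peak (near Ccdc9), chr7:16295503-16295702: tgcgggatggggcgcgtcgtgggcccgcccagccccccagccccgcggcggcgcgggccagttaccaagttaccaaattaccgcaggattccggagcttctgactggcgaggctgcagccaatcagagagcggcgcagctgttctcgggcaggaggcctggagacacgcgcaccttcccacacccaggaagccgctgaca

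Distance from starts was set by the rule. The median distance to the nearest transcription start was 20.8 kb (quartiles 8.14 and 49.6 kb), 1570 sites (10.4%) were more than 100 kb away and 585 (3.87%) lay within 1 kb, the nearest at 101 bp. By annotation 7427 sites (49.2%) were intronic and 6627 (43.9%) intergenic, close to the 48.4% and 43.5% of all distal LP RUNX1 sites. The CTCF consensus was found in 7 of 15094 central 200 bp windows (0.0464%), against 197 of 2917 (6.75%) at constant sites with CTCF. This contrast is built in by the rule, which split these groups by LP CTCF peaks. A Phase 1 CTCF peak overlapped 497 sites (3.29%, 95% Wilson interval 3.02 to 3.59%), beside 0.720% of LP-specific sites without CTCF. Phase 1 CTCF peaks were wider than LP ones (427 against 401 bp), and 815 sites lay within 500 bp of an LP CTCF peak. Whether some of the 497 were LP peaks called at a shifted position was not tested. At the edges of the rule, 27 sites shared 50 bp or fewer with their Phase 1 RUNX1 peak, and 25 LP-specific sites missed one by 50 bp or fewer. Likewise 83 sites lay within 50 bp of an LP CTCF peak without touching it, and 72 constant sites with CTCF shared 50 bp or fewer. LP scores of the selected sites ran from 15, the lowest in the list, through a median of 41.95 to 982.8, and 1738 were under 20. The median LP score was 22.3 at LP-specific sites without CTCF and 52.95 at constant sites with CTCF. The score is the authors' normalized peak score, and it was read only within 1 list.

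Most constant sites carried both coactivators before and after Notch stimulation. Med12 peaks overlapped 12805 of the 15102 sites in LP (84.8%) and 13592 in Phase 1 (90.0%), and p300 overlapped 13856 (91.7%) and 13558 (89.8%). All 4 coactivator lists held a peak at 11259 sites (74.6%, 73.9 to 75.2%), and only 248 sites had a peak in none of them. Around this stable majority, Med12 was gained (Phase 1 only) at 1667 sites, 11.04% (10.5 to 11.5%), beside a background of 8.45% over all 22883 distal LP RUNX1 sites. Med12 was lost (LP only) at 880 sites, 5.83% (5.46 to 6.21%), beside a background of 15.7%. For p300, 729 sites gained it, 4.83% (4.50 to 5.18%), beside 3.87%, and 1027 lost it, 6.80% (6.41 to 7.21%), beside 16.3%. The background includes the LP-specific sites, which the rule left out. Without and with CTCF, these lost Med12 at 48.8% and 51.6% and p300 at 55.8% and 44.8%. The lower losses here are therefore partly built in by the rule. Of the constant sites without CTCF that lacked a peak in LP, 72.6% of 2297 acquired Med12 and 58.5% of 1246 acquired p300. The Phase 1 lists were longer than the LP lists (39132 against 30020 Med12 peaks, 49116 against 36182 p300 peaks). With the RUNX1, Med12 and p300 lists cut to equal length by score, 13740 sites met the rule. Of these, 8.36% gained and 9.36% lost Med12, and 2.97% gained and 12.1% lost p300. The excess of Med12 gains over losses was therefore not seen at equal list length.

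Sites without CTCF differed from constant sites with CTCF in their coactivators. Here 9 planned comparisons were made with two-sided Fisher's exact tests, Benjamini-Hochberg adjusted over the 9. Med12 was less frequent in LP without CTCF (84.8% against 91.5% of 2918, difference -6.68 points, -7.80 to -5.47, odds ratio 0.520, Fisher's adjusted p = 3.46e-23). The same held for p300 in LP (91.7% against 95.6%, odds ratio 0.510, Fisher's adjusted p = 3.17e-14). Gains were more frequent without CTCF. Med12 was gained at 11.04% against 4.76% (odds ratio 2.48, Fisher's adjusted p = 1.19e-28), and p300 at 4.83% against 2.19% (odds ratio 2.26, Fisher's adjusted p = 1.12e-11). Med12 was lost less often without CTCF, at 5.83% against 10.1% (odds ratio 0.552, Fisher's adjusted p = 1.27e-15). Constant sites with CTCF had higher LP RUNX1 scores (median 52.95 against 41.95). Within 5 classes of that score, the Mantel-Haenszel odds ratios for gains were nearer to even, at 1.86 for Med12 and 1.58 for p300. For presence in LP they were 0.716 and 0.705, and for lost Med12 0.486. For p300 loss the shares were 6.80% and 6.44% (difference 0.358 points, -0.669 to 1.29, odds ratio 1.06, Fisher's adjusted p = 0.519). This comparison depended on the setting, passing the threshold with a minimum score of 30 (odds ratio 1.58), equal list length (1.27) and CTCF of either stage counted (1.20), and turning to 0.929 within classes of score.

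**Figure D1:**
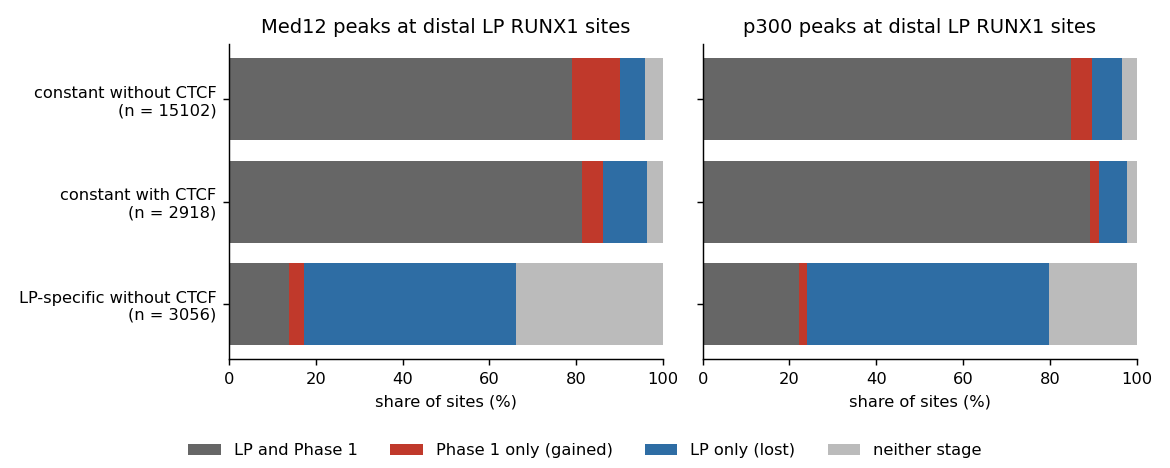
Share of sites (%, x axis) with a Med12 peak (left) or p300 peak (right) in both stages, in Phase 1 only, in LP only or in neither, for constant sites without CTCF, constant sites with CTCF and LP-specific sites without CTCF. At the constant sites without CTCF the Phase 1 only segment is 11.04% for Med12 and 4.83% for p300, wider than with CTCF (4.76% and 2.19%).

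Compared with LP-specific RUNX1 sites without CTCF, the constant sites already had more coactivator peaks before Notch stimulation. Med12 was present in LP at 84.8% against 62.7% of 3056 sites (difference 22.1 points, 20.3 to 23.9, odds ratio 3.32, Fisher's adjusted p = 1.59e-154). For p300 the shares were 91.7% and 78.0% (odds ratio 3.13, Fisher's adjusted p = 6.79e-94). LP-specific sites had lower RUNX1 scores, and within 5 classes of LP RUNX1 score the Mantel-Haenszel odds ratios were 1.49 for Med12 and 1.51 for p300.

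The coactivators changed together when both changed. Of 961 sites where both Med12 and p300 changed, 907 changed in the same direction (94.4%, 92.7 to 95.7%), made up of 509 sites that gained both and 398 that lost both. Over all distal LP RUNX1 sites, which include the LP-specific ones, 2.42% gained both and 9.31% lost both. Here the shares were 3.37% and 2.64%, the lower loss being partly built in by the rule. The commonest single change was a gain of Med12 where p300 was present at both stages, at 991 sites (6.56%). Sites that gained Med12 had weak LP RUNX1 peaks, with a median LP score of 23.5 where p300 was constant and 19.8 where p300 was gained too. Sites that lost both had a median LP score of 36.0, and sites with all 4 coactivator peaks one of 50.3. The 7 sites that lost Med12 and gained p300 were the rarest combination.

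RUNX1 was called at the same positions in both lists, but the order of the peak scores differed between the lists. Each site was given the percentile rank of its score within the LP list and of the overlapping peak within the Phase 1 list, and the shift is the Phase 1 rank minus the LP rank in percentile points. These ranks come from the lists that chose the sites and are given as a description. Every site had exactly 1 overlapping Phase 1 RUNX1 peak, and the median shared length was 314 of 341 bp. The 2 ranks went together over the 15102 sites (Spearman's rho 0.746, Pearson's r 0.745), and 6822 sites (45.2%) stayed within 10 points. The median shift was 6.19 points (quartiles -2.96 and 18.7), and 10195 sites (67.5%) had a shift above 0. The Phase 1 RUNX1 list was longer than the LP list (38399 against 31995 peaks), and with the Phase 1 list cut by score to the length of the LP list, and the 1357 sites past that limit set to rank 0, the median shift was -0.67 and 7228 sites (47.9%) had one above 0. Among the selected sites alone the median was -0.46, which that construction holds near 0. The excess of rises was therefore not seen at equal list length, a setting chosen after seeing the data, and "rose" and "fell" refer to ranks in the full lists unless equal length is named. Rises of 25 points or more were found at 2490 sites (16.5%) and falls of that size at 574 (3.801%), and at equal length at 1439 (9.53%) and 1490 (9.87%). Constant sites with CTCF had a median shift of 0.61 points (quartiles -6.95 and 8.42), and one of -5.84 at equal length.

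**Figure D2:**
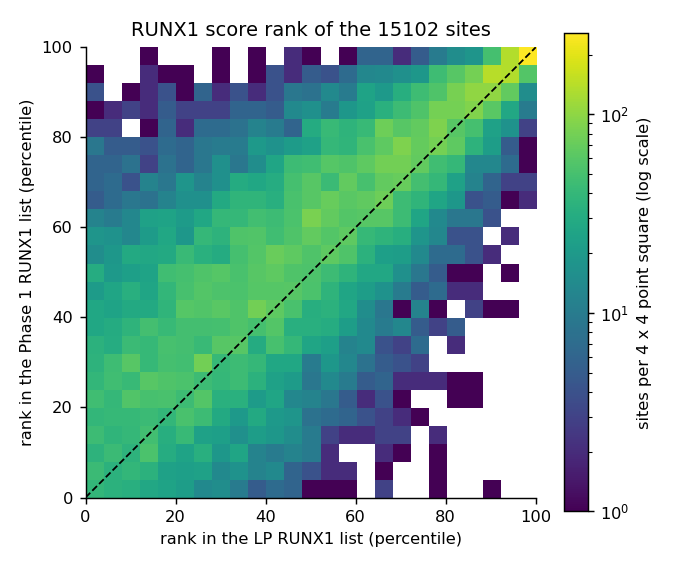
Percentile rank of each of the 15102 sites in the LP RUNX1 list (x axis) and in the Phase 1 RUNX1 list (y axis), with colour for the number of sites in a square on a log scale and a dashed line of equal rank. Sites crowd the line at high ranks, and at low LP ranks they spread far above it (median shift 6.19 points, and -0.67 at equal list length).

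Coactivator changes went with the RUNX1 shift. In 5 equal classes from the largest falls to the largest rises, the share of sites gaining Med12 was 2.95%, 5.40%, 7.35%, 13.0% and 26.4%. The share losing Med12 ran the other way, at 18.1%, 4.90%, 3.44%, 2.09% and 0.563%. For p300 the gained share went from 1.06% to 11.9% and the lost share from 17.2% to 1.46%. At sites that gained Med12 the median shift was 21.1 points and 1480 of 1667 (88.8%) rose, whereas at sites that lost it the median was -10.9 and 227 of 880 (25.8%) rose. The median shift was 25.2 points at the 509 sites that gained both coactivators and -13.9 at the 398 that lost both. Where a coactivator was present at both stages its own rank moved with that of RUNX1, with Spearman's rho 0.824 (Pearson's r 0.849) for Med12 over 11925 sites and 0.810 (0.839) for p300 over 12829 sites. With RUNX1 ranks at equal list length, Med12 was gained at 3.51% and 23.3% and lost at 18.3% and 0.397% of the sites in the lowest and highest classes. Local read depth can enter all of these lists, and its part in the relation was not tested.

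Because a weak LP site has more room to rise, the same shares were read within 5 classes of LP rank. In the weakest class, Med12 was gained at 48.8% of the 604 sites with the largest shift and at 13.7% of the 604 with the smallest. In the middle class the shares were 10.1% and 1.32% of 605 sites each, and in the strongest class 2.81% and 0.826%. Loss of Med12 was seen at 0.166%, 0.331% and 0.165% of the sites with the largest shift in these 3 classes and at 21.03%, 28.9% and 8.43% of those with the smallest. The 2 classes between them showed the same order, with Med12 gained at 17.5% against 4.80% and at 4.30% against 1.66%.

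**Figure D3:**
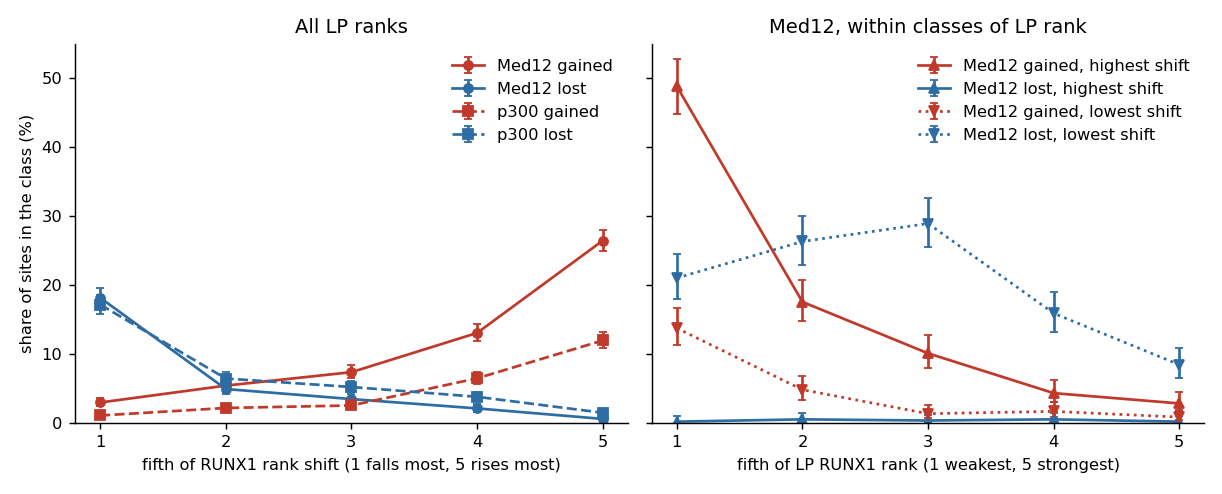
Share of constant sites without CTCF (%, y axis) that gained or lost Med12 or p300 over 5 classes of RUNX1 rank shift (left), and that gained or lost Med12 among sites with the highest and lowest shift within each of 5 classes of LP RUNX1 rank (right). Bars are 95% Wilson intervals. Gains of Med12 rise from 2.95% to 26.4% and losses fall from 18.1% to 0.563% across the classes of shift.

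The single sites at the extremes show how far the lists moved. The largest rise was at chr10:125488353-125488693, 160 kb upstream of Slc16a7, a monocarboxylate transporter gene. Its RUNX1 score was 15.2 in LP and 179.0 in Phase 1, its rank went from 0.666 to 92.4, and its Med12 score was 20.1 in LP and 201.7 in Phase 1. The next was in intron 13 of Cmtr1 (chr17:29693584-29693924), with RUNX1 scores of 15.1 and 166.3, and there both coactivators were gained, with Phase 1 scores of 97.7 for Med12 and 167.8 for p300. A site in intron 4 of the adaptor gene Nck2 (chr1:43562375-43562715) rose by 90.2 points, gained Med12 and carried a Phase 2 Notch1-IC peak. The fifth largest rise, of 86.1 points, lay 271 kb from the start of Gata3, the zinc finger factor required for T cells, at chr2:9607712-9608052. It had RUNX1 scores of 15.9 and 146.8, gained Med12 and had p300 scores of 43.6 and 304.0.

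The largest fall was in intron 1 of Cuedc1 (chr11:88117317-88117657), where the RUNX1 score was 151.1 in LP and 15.9 in Phase 1 and the rank went from 89.7 to 3.17. Its Med12 score of 170.5 and p300 score of 396.8 in LP had no counterpart in Phase 1. Of the 5 largest falls, 4 lost Med12 and 3 of these also lost p300. Among sites that gained both coactivators, the one with the highest Phase 1 RUNX1 score was chr7:28383031-28383371, 3.97 kb upstream of Zfp36, which encodes the mRNA decay factor tristetraprolin. Its RUNX1 rank was 95.7 in LP and 98.5 in Phase 1, and its Phase 1 scores were 238.9 for Med12 and 416.3 for p300. The next of this kind was in intron 2 of Runx1 itself (chr16:92822074-92822414), 3.83 kb from a start, with RUNX1 scores of 115.7 and 250.0. Among sites that lost both, the one with the highest LP score was chr17:27637374-27637714, 2.30 kb from the start of Rps10, whose RUNX1 rank was still 84.9 in Phase 1 after 95.5 in LP. A site near Tle2, a Groucho-family corepressor gene, at chr10:81571586-81571926, likewise lost both coactivator peaks while its rank went from 94.9 to 91.4, but it carried a Med12 peak in both sgCont and sgCbfb cultures.

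The highest-scored site of all was chr14:54227402-54227742, with RUNX1 scores of 982.8 in LP and 939.1 in Phase 1, the second highest score of the LP list. It lay 3.20 kb past the end of Trac, the T cell receptor α constant gene, in the stretch toward Dad1 where the Tcra enhancer is known to lie. It had the highest p300 score of the LP list, 2785.7, and Notch1-IC peaks in LP, Phase 1 and Phase 2. The second, chr3:5860445-5860785, was on a ribosomal RNA repeat, 1 of 11 selected sites on ribosomal RNA or satellite repeats, where reads from other copies may have been placed. The strongest site without any coactivator peak in these 4 lists, chr7:16295432-16295772 near Ccdc9, had RUNX1 scores of 135.1 and 159.2, and it did carry a Med12 peak in sgCont cultures.

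Short consensus strings were counted in the central 200 bp and in windows of equal size 2 kb to each side, on both strands. The strings were TGTGGTT or TGCGGTT for RUNX, CAGCTG or CAGGTG for E proteins, GAGGAAGT for PU.1, AGATAA for GATA factors, TGAGTCA or TGACTCA for AP-1, CTTTGAA or CTTTGAT for TCF1 and LEF1, and GTGGGAA for RBPJ, through which Notch1-IC reaches DNA. A RUNX string was found at 32.4% (31.7 to 33.2%) of 15094 sites and in 5.49% of their flanks. E protein strings were found at 37.0% (flanks 23.1%), PU.1 at 12.8% (1.18%) and AP-1 at 8.00% (3.50%). GATA strings, at 8.21%, and TCF strings, at 6.06%, were less frequent than in the flanks (10.7% and 7.48%), and RBPJ strings were at 4.89% (4.07%). At LP-specific sites without CTCF the RUNX string was found at 17.9%, 14.5 points lower (95% interval 13.0 to 16.1), and the E protein strings at 44.1%.

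String shares differed between sites that gained both coactivators and sites that lost both. Sites that gained both coactivators held a RUNX string at 40.9% and sites that lost both at 29.0% (difference 11.9 points, 5.64 to 18.0). E protein strings went the other way, at 24.95% and 39.5% (difference -14.6 points, -20.6 to -8.47). GATA strings were at 10.8% and 3.53% (difference 7.28 points, 3.94 to 10.6), where the flanks held 11.002% and 9.57%, so that the gained sites were level with their flanks and the lost sites below them. TCF strings were at 8.45% and 5.04% (difference 3.41 points, 0.046 to 6.66, flanks 7.27% and 8.06%) and RBPJ strings at 8.06% and 3.27% (difference 4.78 points, 1.73 to 7.79, flanks 3.34% and 3.90%). For PU.1 (9.04% and 11.1%) and AP-1 (7.07% and 4.79%) the intervals of the difference included 0. From the class of largest falls to that of largest rises the RUNX share was 24.5% and 39.9%, the E protein share 45.3% and 31.2%, the GATA share 5.94% and 13.2% and the RBPJ share 3.32% and 6.85%. The intervals were not adjusted over the strings, and the groups were not matched on LP RUNX1 rank. Its median was 11.9 where both coactivators were gained and 38.5 where both were lost. From the weakest to the strongest of 5 classes of LP rank, the E protein share was 31.8% and 43.6%. The GATA share was 10.3% and 7.09%, and the RUNX share 32.8% and 36.3%. A match is a run of letters and was not taken as a bound site.

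**Figure D4:**
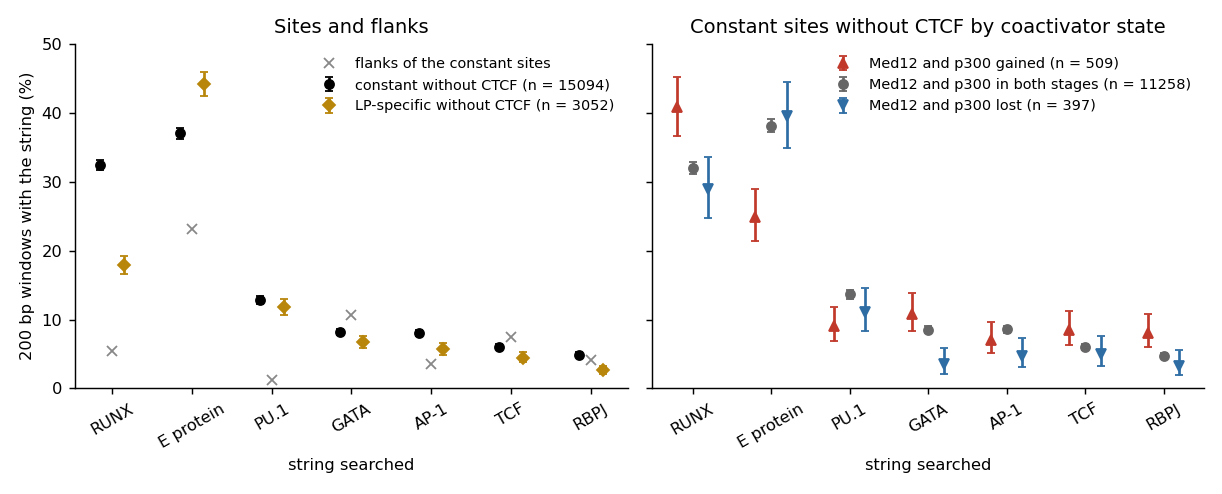
Share of central 200 bp windows (%, y axis) holding each string, with 95% Wilson intervals, for constant and LP-specific sites without CTCF and the flanks of the constant sites (left), and for constant sites without CTCF by coactivator state (right). RUNX and GATA strings are more frequent where both coactivators were gained than where both were lost (40.9% against 29.0%, and 10.8% against 3.53%), and E protein strings less so (24.95% against 39.5%). These groups were not matched on LP RUNX1 rank.

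Notch1-IC, the fragment released from the activated receptor, was called at few of these sites. The Phase 1 list held 152 peaks and the Phase 2 list 352, and 67 (44.1%) and 159 (45.2%) of them overlapped a constant site without CTCF. In all, 177 sites (1.17%, 1.01 to 1.36%) had a Phase 1 or Phase 2 Notch1-IC peak, beside 0.896% of all distal LP RUNX1 sites. These 177 were strong RUNX1 sites, with a median LP rank of 81.4, and 147 of them (83.1%) rose in rank, beside 67.5% of all constant sites without CTCF. The median shift over the 177 was 8.43 points, and at equal list length 5.79 with 139 (78.5%) above 0, beside 47.9%. Both coactivators were present at both stages at 161 of the 177, beside 74.6% of all constant sites without CTCF. This was not matched on LP rank. In the strongest of 5 classes of LP rank, Med12 was called at both stages at 95.5% and p300 at 95.7% of the sites. An RBPJ string was found at 20.3% (15.1 to 26.9%) and E protein strings at 67.2% (60.0 to 73.7%) of the 177, against 4.89% and 37.0% of all constant sites without CTCF. Of the 1667 sites that gained Med12, 12 (0.720%) had a Phase 1 or Phase 2 Notch1-IC peak. Sites that gained Med12 were weak RUNX1 sites in LP, and this share was not matched on LP rank. Over all constant sites without CTCF it was 0.331% in the weakest of 5 classes of LP rank and 3.74% in the strongest. In LP, where no Notch ligand was given, the list held 1585 Notch1-IC peaks, of which 1036 (65.4%) were at these sites. That was 6.86% of the 15102 sites, beside 5.71% of all distal LP RUNX1 sites and 8.50% of constant sites with CTCF. They sat at a median LP RUNX1 rank of 89.7, and their RBPJ share was 5.79%.

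Cultures with guide RNAs gave shorter lists, and the study states that cells lacking these factors were hard to obtain in number, so that these data were noisier. In Phase 1 sgCont cultures a Med12 peak was called at 7369 of the 15102 sites (48.8%). Of these, 3853 (52.3%, 51.1 to 53.4%) had no Med12 peak when Cbfb, the gene of the RUNX partner, was targeted, beside 46.6% over all distal LP RUNX1 sites, while 1043 sites had one in sgCbfb only. The share kept differed by when Med12 was called. At sites with Med12 at both stages the peak was kept in sgCbfb at 3423 of 6918 (49.5%, 48.3 to 50.7%), and at sites that gained Med12 at 48 of 343 (14.0%, 10.7 to 18.1%). The difference was 35.5 points (31.2 to 39.0, odds ratio 6.02, Fisher's adjusted p = 2.86e-41). Gained sites had somewhat weaker sgCont Med12 peaks (median score 22.5 against 28.3), and within 5 classes of that score the odds ratio was 5.10. In the weakest class 11.9% of 101 gained sites kept the peak against 32.9% of 1337, and in the strongest 27.6% of 29 against 73.4% of 1429. Sites that gained Med12 also had weak LP RUNX1 peaks, and this comparison was not matched on LP RUNX1 rank. Over all constant sites without CTCF the share kept was 23.7% in the weakest of 5 classes of that rank and 56.9% in the strongest.

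Over the 5 classes of RUNX1 shift, from the largest falls to the largest rises, the share without Med12 in sgCbfb was 39.0%, 34.7%, 46.9%, 61.8% and 79.8%. This share also varied with LP RUNX1 rank, from 76.3% in the weakest of 5 classes to 43.1% in the strongest. The class of largest rises had a median LP rank of 23.6, against 45.2 for all sites, and shift and LP rank were not separated here. At constant sites with CTCF the Med12 peak was kept more often, at 1357 of 1893 (71.7%), which is given as a description. RUNX1 itself was called in Phase 1 sgCont cultures at only 1047 of the sites, and 747 of these (71.3%, 68.5 to 74.0%) were also called in sgMed12, beside 72% of all distal LP RUNX1 sites. The sgMed12 list was the longer (2094 against 1550 peaks) and had a peak at 1312 of the sites, so others were called in sgMed12 only. In LP, 173 of 271 sgCont RUNX1 sites (63.8%, 58.0 to 69.3%) were called in sgCTCF, beside 62.5%. The sgCTCF list had a peak at 293 of the sites, so here too some were called only in the targeted cultures. At constant sites with CTCF the shares kept were 75.0% of 232 in sgMed12 and 61.6% of 125 in sgCTCF. Only 34 sites that gained Med12 and 6 that lost it had a Phase 1 sgCont RUNX1 peak, so these were not compared.

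The deposited nearest start gave a gene symbol for 15070 sites, spread over 7203 genes, of which 3854 had 1 site and 62 had 10 or more. Nearest gene is a matter of distance and was not taken as a target. The longest runs were at Mir6388 (30 sites), Mir7094-2 (21), Runx1 (20), Gm17746 and Setbp1 (19 each), Pik3r1 and Tbl1xr1 (18 each), and Rplp1, Foxp1, Zfp608 and Irf2bp2 (15 each). Mir6388 and Mir7094-2 lie among the variable gene segments of the immunoglobulin heavy chain locus. The 19 sites of Gm17746, a noncoding RNA gene, all had Id2, an inhibitor of E proteins, as their nearest protein-coding start. Near Pik3r1, the regulatory subunit of phosphoinositide 3-kinase, 17 of 18 sites had all 4 coactivator peaks. Tbl1xr1, a corepressor subunit, had a median shift of 18.1 points with 15 of 18 sites rising, and Foxp1, a forkhead factor of lymphocytes, one of -8.96 with 6 of 15 rising. Over all 15102 sites the median was 6.19 points, 67.5% rose and 74.6% had all 4 coactivator peaks.

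The antigen receptor loci were looked at after these names had been seen. The heavy chain locus (chromosome 12, 113254830 to 116010093) held 73 constant sites without CTCF in 2.76 Mb, and 60 of them had all 4 coactivator peaks. Med12 was gained at 5 and lost at 2 of them. A RUNX string was found at 59 of the 73, where 32.4% of all constant sites without CTCF held one. The locus holds 215 gene segments, and the authors' alignment settings allowed several placements of a read. Whether the 73 sites share copied sequence or reads was not tested, so the 59 need not be independent. The T cell receptor α and δ locus held 26 such sites in 1.80 Mb, with Med12 gained at 4 and lost at 2. Over all 15102 sites Med12 was gained at 11.04% and lost at 5.83%, and 74.6% had all 4 peaks. The β locus held 14, all with the 4 coactivator peaks, and 11 of these rose in rank, where 67.5% of all constant sites without CTCF rose. The κ light chain locus, of 3.17 Mb, held 5.

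Gene lists were then read by nearest start, and 531 sites lay at 136 of the 210 listed genes. The 10 T-lineage factors all had sites, 41 in total, and the highest share of Med12 gains among the lists. Med12 was gained at 16 (39.0%) and lost at 1, p300 was gained at 5 and lost at 2, and 36 of 41 (87.8%) rose in RUNX1 rank. The median shift over the 41 was 18.4 points against 6.19 for all sites, and at equal list length it was 5.40 against -0.67, with 31 of 41 above 0. Of all 15102 sites 67.5% rose, and 47.9% did at equal list length. These shares are the background for each count of rising sites below. The background shares for the 15102 sites were 11.04% gained and 5.83% lost for Med12, and 4.83% gained and 6.80% lost for p300. The 41 sites were weaker in LP, with a median LP RUNX1 score of 29.2 against 41.95 for all sites. Over all sites, Med12 was gained at 31.5% in the weakest of 5 classes of LP rank and at 1.72% in the strongest. The shares by gene list were not matched on score. AP-1 and Bach genes gained Med12 at 13 of 61 sites and lost it at 3, with a median shift of 7.02. T cell receptor and signaling genes gained it at 12 of 81 and lost it at 5 (median shift 6.93), and cytokine, chemokine and homing receptor genes at 10 and 4 of 92 (9.66). The Notch pathway genes had 27 sites at 9 of 18 genes, with Med12 gained at 2, lost at 1 and a median shift of 15.1. Stem and progenitor genes gained Med12 at 6 and lost it at 4 of 50 (9.87). Myeloid genes gained and lost Med12 at 4 of 38 each, with a median shift of -0.63 and 19 rising. B-lineage genes had 3 gains and 1 loss in 24 sites and a median of -0.07 with 12 rising. Innate lymphoid genes had 2 gains and 3 losses in 29 (8.66), and RUNX, Ikaros, E protein and ETS genes 10 and 7 in 87 (1.05). Hepatocyte genes, a control list for the tissue the line came from, had 1 site, at Apoa1.

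**Figure D5:**
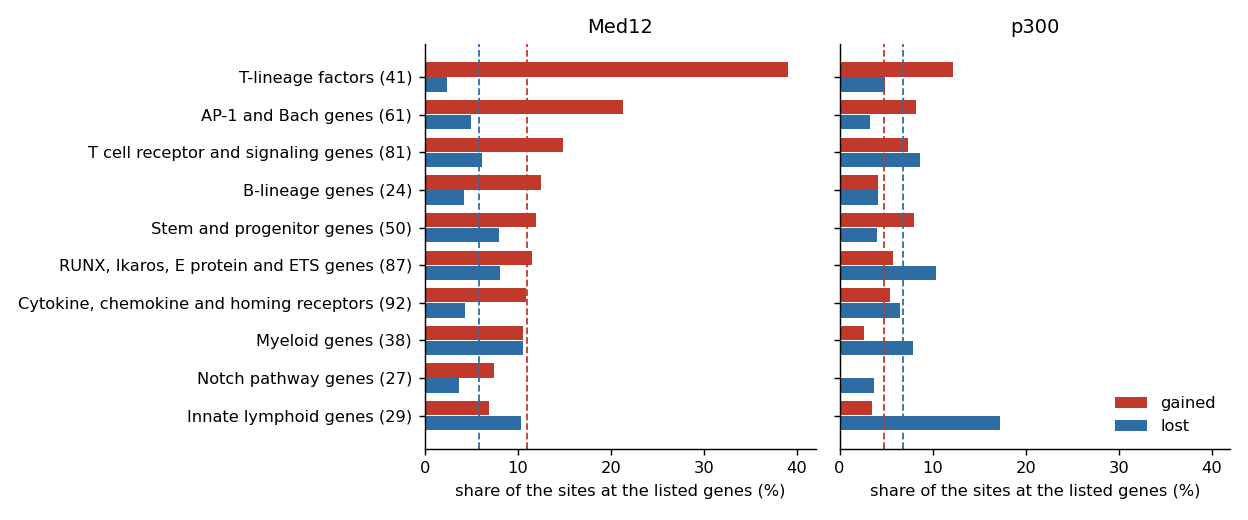
Share of constant sites without CTCF at the listed genes (%, x axis) that gained or lost Med12 (left) and p300 (right), with the number of sites in brackets and dashed lines at the shares of all 15102 sites. Lists with fewer than 20 sites are left out. T-lineage factors stand at 39.0% for gained Med12 against 11.04% for all sites, unmatched on LP RUNX1 score (median 29.2 against 41.95).

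Within the T-lineage list the changes were spread over several genes. Gata3 had 6 sites from 5.79 to 284 kb from its start. Its farthest site (chr2:9593985-9594325), which carried Phase 2 Notch1-IC, had RUNX1 scores of 92.9 in LP and 368.2 in Phase 1, and Med12 was gained at 3 of the 6. Of its sites, 5 rose in rank and the one at 75.9 kb fell by 8.16 points. Bcl11b, the T-lineage commitment factor, had 4 sites and all rose, by 17.9 to 49.1 points. Med12 was gained at 2 of them, including one 44.0 kb upstream (chr12:108047242-108047582) where p300 was gained too. Tox, an HMG-box factor, had 7 sites, 3 of which gained Med12, and one 161 kb upstream (chr4:7152044-7152384) had RUNX1 scores of 18.5 and 135.3. Lef1, a TCF1 relative, had 7 sites of which 6 rose and 2 gained Med12. Tcf7, which encodes TCF1, had 3 sites with rises of 4.44 to 24.6 points. The one 35.6 kb upstream was already at rank 93.9 in LP, and another, 14.2 kb inside, lost both coactivator peaks while its rank rose by 18.5. Tox2 had 4 sites, all of which rose, with Med12 gained at 1 and p300 at 1.

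Other genes show the range. Maf, a bZIP factor used by several T cell subsets, had 12 sites with a median shift of 29.9 points, 11 of which rose, and Med12 was gained at 5 and lost at 0. A site 473 kb from its start with Phase 1 Notch1-IC (chr8:115234121-115234461) had RUNX1 scores of 46.3 and 182.9. Hes1, a direct Notch target, had 6 sites, all with the 4 coactivator peaks, which 74.6% of all 15102 sites had. The one 1.09 kb upstream (chr16:30064095-30064435) carried Phase 1 and Phase 2 Notch1-IC and had RUNX1 scores of 106.2 and 222.1. At Rbpj all 3 sites rose, by 12.6 to 52.4 points. Itga4, an integrin subunit, had 9 sites that all rose, by a median of 29.6, and Cd44 9 that all rose, by 15.7. Cxcr4, a homing receptor of progenitors, had 14 sites, of which 12 rose, and S1pr1 9 sites, all with the 4 coactivator peaks.

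Irf8, a factor of myeloid and dendritic cells, went the other way, with 14 sites and a median shift of -6.10. The other named myeloid genes had medians of 15.2 (Itgam, 4 of 5 sites rising), 6.55 (Klf4, 3 of 4) and 0.39 (Csf2ra, 2 of 3). Of the 14 Irf8 sites, 8 fell in rank, and Med12 was gained at 3 and lost at 3. The site 22.0 kb from its start (chr8:120760473-120760813) lost both coactivators and fell by 27.6 points, while one 84.4 kb away gained both and rose by 26.2 points. Runx1 showed a similar mixture. Of its 20 sites, 11 rose, and Med12 was gained at 4 and lost at 4. Among them was chr16:92653895-92654235, where RUNX1 scores were 35.9 and 117.9 and both coactivators were gained, and chr16:92880640-92880980, where the scores were 38.9 and 17.5 and both were lost. Among the named B-lineage genes, Foxo1 had 3 sites and Jchain 2, none of which rose, while 3 of 4 rose at Irf4 and 2 of 3 at Blk. Runx3 had 14 sites with a median shift of -0.09, and Bach2 13 with one of 0.69.

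Of the 15102 sites, 6970 (46.2%) lay within a stitching distance often used for super-enhancers of another, and 115 clusters held 5 or more. The largest held 9 sites each, over 47.6 kb at Fth1 and Incenp (chromosome 19, 9931178 to 9978728) and over 60.4 kb at Coro2a (chromosome 4, 46554676 to 46615038), and 3 clusters held 8, at Arid5a and Neurl3 over 44.1 kb, at Arhgef3 over 51.8 kb and at Rmi2 and Prm1 over 52.3 kb. Med12 was gained at 1 site at Fth1 and Incenp, 2 at Coro2a, 1 at Arid5a, 2 at Arhgef3 and 0 at Rmi2 and Prm1, and lost at 1 site in each of the 5 clusters. The Arid5a cluster had 2 of 8 sites rising, with a median shift of -2.97, against 5 of 9 at Fth1 and Incenp and at Coro2a.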

How the data were processed

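Peak lists from ChIP-seq of Cas9-LP cells, crosslinked with disuccinimidyl glutarate and formaldehyde, were used. Per the labels and the study's methods, the authors aligned reads to mm10 with Bowtie 1.1.1, called peaks with HOMER against a control and kept peaks reproducible between both replicates. The deposited peak scores are the authors' normalized scores, none under 15. Sequencing depth was not used here, and shorter lists may reflect lower depth.

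Overlaps of at least 1 bp, 95% Wilson and Newcombe intervals, two-sided Fisher's exact tests (Benjamini-Hochberg over 9) and Mantel-Haenszel odds ratios were computed with Python 3.11.15, pandas 2.3.3 and scipy 1.17.1, and the code was tested on simulated data. Strings were read from GRCm38 with pysam 0.24.0. The deposited distance to a transcription start is in bp, and its RefSeq accession was matched to a symbol because the gene name column was empty. Gene segments came from GENCODE for the same build.

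Named were the 10 genes with most sites and 1 tied with them, up to 4 per gene list, the top 5 sites of each kind and the largest clusters. Antigen receptor loci, Bcl11b, Tcf7 and single gene sites were chosen after their values were seen. The sites and lists were chosen with earlier results of these data known.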

Additional observations from a re-analysis of the deposited data

Results flagged for a closer look

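Between constant sites without and with CTCF, the change from LP to Phase 1 differed by Fisher's exact test for gained Med12 (odds ratio 2.48), gained p300 (2.26) and lost Med12 (0.552). Within 5 classes of LP RUNX1 score, the Mantel-Haenszel odds ratios were 1.86, 1.58 and 0.486. The loss of Med12 peaks in sgCbfb cultures differed between sites with Med12 at both stages and sites that gained it (odds ratio 6.02 for a kept peak). That comparison was not matched on LP RUNX1 rank. Outside the coactivator lists, 1036 sites carried an LP Notch1-IC peak, called in cells without Notch ligand, and 497 carried a Phase 1 CTCF peak. No control list was given for these 2 signals, and their sources were not tested.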

How the results depend on the processing

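The 9 tests were repeated under 8 settings. Direction and side of the 0.05 threshold were kept for 8 tests in all of these, and p300 loss was the exception. Its odds ratio without against with CTCF was 1.58 with a minimum score of 30, 1.27 at equal list length and 1.20 with CTCF of either stage counted, each past the threshold, and turned to 0.933 with an overlap of at least 0.5 of the narrower peak and to 0.929 matched on score, both short of it. The number of sites was 9744 at a minimum score of 30, where Med12 was lost at 6.81% and p300 gained at 3.45%. At equal list length, where 13740 sites met the rule, Med12 was gained at 8.36% and lost at 9.36%, and p300 gained at 2.97% and lost at 12.1%. With that overlap p300 was lost at 7.32%. With coactivator peaks within 500 bp counted, an alternative chosen after seeing the data, Med12 was lost at 5.41% and p300 at 5.94%. Leaving out repeats, also added later, moved none of these shares beyond its interval. Ranks among the sites alone gave a median RUNX1 shift of -0.46, and RUNX1 lists of equal length, also chosen after seeing the data, one of -0.67, so its sign turned. A 100 bp window held a RUNX string at 23.8% of sites, as fewer bases were searched. Lists of unknown depth limit every gain or loss, since a peak under the score limit reads as absent. No paired analysis was possible because each list combined both replicates, and for the same reason no replicate could be left out.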
